A study of Mus musculus with 14 samples.

Results

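A set of 33 genes of homologous recombination and Fanconi repair was followed across 14 RNA-seq libraries of cultured mouse neural stem cells. The genes were taken by name, as known members of these pathways, with earlier results of these data known. All 33 were found among the 29713 genes of the deposited files and all 33 passed the filter on low counts. By role they were 4 genes of the BRCA complex, 7 of strand exchange, 6 of the Fanconi core complex, 4 of the FANCD2-FANCI pair and its effectors, 6 that process break ends or dissolve joined strands, 5 of the damage checkpoint, and the mismatch gene Msh6.

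The cells, neural stem cells (NSC), came from OG2 mice, a strain with a fluorescent reporter of Pou5f1. A drug experiment at passage 8 had 12 libraries, in which undifferentiated cells and cells at day 2, day 4 and day 8 of differentiation each received naloxone, DAMGO or the control that the labels call NC. DAMGO, a synthetic peptide, activates the mu opioid receptor, and naloxone blocks opioid receptors. A library of NSC at passage 8 and another at passage 13, with no named treatment, served as references. Each condition was sequenced once, so the mean and SD of a stage are over its 3 libraries (1 per treatment, n = 3). The spread behind each test came from fitting the 12 libraries with a term for stage and another for treatment, and the p-values measure only the spread between these libraries.

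Homologous recombination repairs broken DNA by copying an intact sister strand, and it works in cells that are replicating or have replicated their DNA. The ends are sensed and trimmed, BRCA1 and PALB2 bring in BRCA2, and the exposed strand is then paired with the intact copy. The Fanconi proteins act on crosslinked DNA, where a core complex attaches ubiquitin to FANCD2 and FANCI and so calls in nucleases and recombination. Many of these genes are expressed most in dividing cells, and neural progenitors, which divide fast, are sensitive to their loss.

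The libraries held 4143030 to 9070533 estimated counts, of which the 33 genes held 8145 to 11769 in each of the 5 libraries of undifferentiated and reference cells and 1250 to 1613 at day 8. Levels in time are given in CPM, the count of a gene relative to the TMM-scaled total of its library, and levels of different genes are compared in TPM, which also divides by transcript length. A library in which a gene had no count allows up to 0.354 to 0.693 CPM for it, counting error only. The summed level of 8 astrocyte markers went from 1200 to 1240 CPM in undifferentiated cells to 29800 to 32100 CPM at day 8, and that of 8 stem and progenitor markers from 8500 to 8800 to 8260 to 8490. Gfap, the astrocyte filament, stood at 2.33 ± 1.67 and 8770 ± 321 CPM at these stages, and Nes, the progenitor filament, at 1800 ± 77.7 and 268 ± 41.3. The stem and progenitor sum was 4630 to 4780 CPM at day 4, and its genes did not move together. Log2 differences of day 4 from undifferentiated cells were above 0 for Pax6 (1.36) and Sox2 (0.68) and below 0 for the rest, with Vim at -1.20. From day 4 to day 8 Vim (2.37) and Nes (0.54) rose and the rest of that list fell. The 8 microglia markers summed to at most 2.42 CPM in any library, with Cx3cr1 and C1qa at 0 in every one, and the 8 endothelial markers to 2.82 to 4.14 CPM before differentiation and 16.9 to 24.9 at day 8, with Cdh5 and Cldn5 at 0 throughout. The 8 oligodendrocyte markers summed to 209 to 237 CPM before differentiation, 1070 to 1120 at day 2, 2000 to 2050 at day 4 and 913 to 959 at day 8. The 8 neuronal markers summed to 1290 to 1320, 796 to 1890, 2010 to 2090 and 486 to 637 CPM at these stages, so that both lists had their highest sums at day 4. The 8 mesenchymal markers summed to 2.42 to 7.36 CPM before differentiation and 124 to 150 at day 8. The part that these changes of cell type had in the levels of the repair genes was not tested, and in RNA from a whole culture fewer cells of a type and less RNA per cell cannot be told apart.

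Nearly the whole set was lower in differentiating than in undifferentiated cells. The summed level of the 33 genes was 1590 ± 54.4 CPM before differentiation, and day 2 had 310 ± 74.3, day 4 had 412 ± 9.77 and day 8 had 217 ± 23.6. The median gene had 25 TPM before differentiation, then 4.58 (day 2), 2.91 (day 4) and 1.17 (day 8). Against undifferentiated cells, 32 of the 33 genes were lower at day 2 (edgeR's quasi-likelihood test, Benjamini-Hochberg adjusted p under 0.05), where 35.9% of the 13144 genes tested were called lower, 33.7% higher and 69.7% in either direction. At day 4 the number was 31 of 33 against a background of 31% lower, 31.4% higher and 62.3% in either direction. At day 8 it was 32 of 33 against 38.5% lower, 41.6% higher and 80.1% in either direction. No member was higher at any of these days. The median log2 difference of the 33 genes was -2.89 at day 2, -2.96 at day 4 and -3.68 at day 8, next to -0.01, -0.01 and 0.05 for all genes tested. Falls of 8-fold or more were seen in 16 members at day 2, 16 at day 4 and 23 at day 8, compared with 2.62, 3.17 and 5.8% of all genes. In 32 of the 33 genes every day 8 library lay below every undifferentiated library, as in 40.2% of all genes, and Fancg was the exception.

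**Figure D1:**
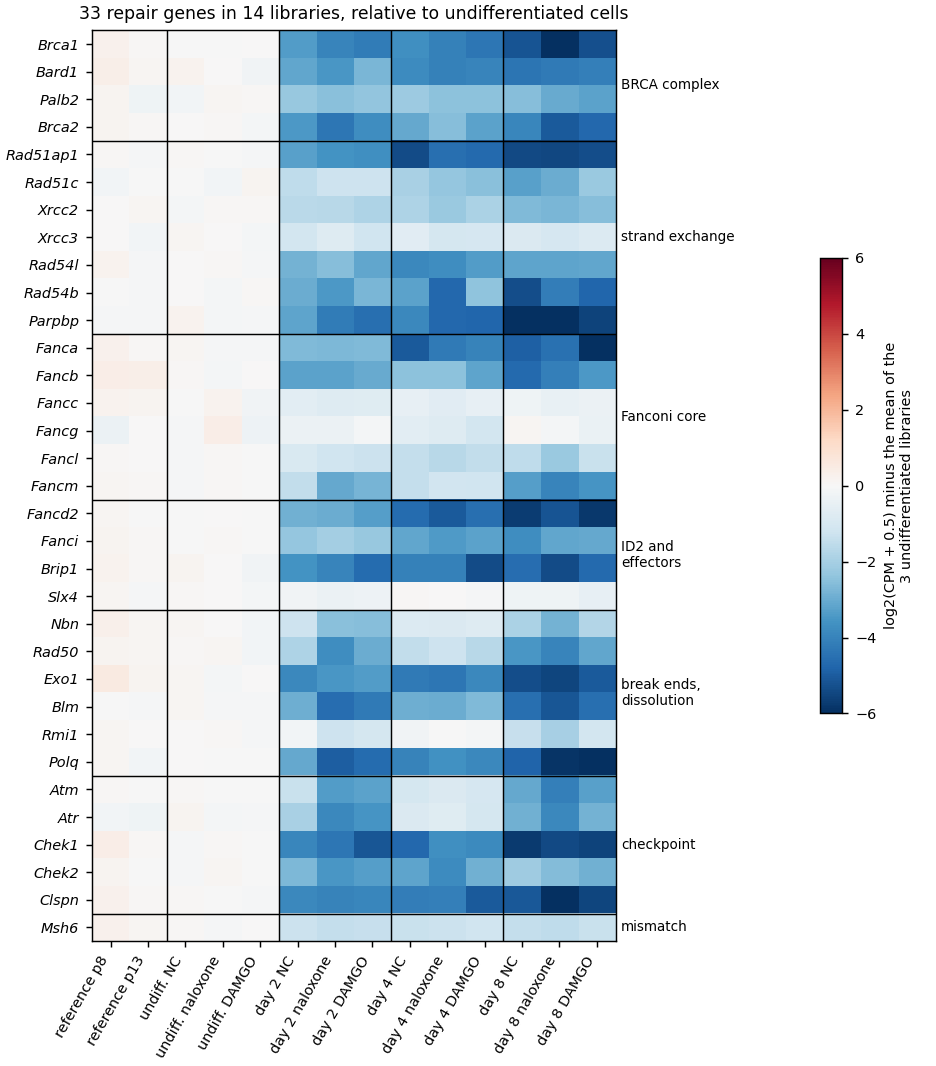
Level of each of the 33 repair genes (rows, grouped by role) in each of the 14 libraries (columns), as log2(CPM + 0.5) minus the mean of the 3 undifferentiated libraries, with colours limited at -6 and 6. The reference and undifferentiated columns are near 0, the differentiated columns are blue for all rows but a few pale ones such as Slx4, Fancg and Fancc, and day 4 is paler than day 2 for Atm, Atr, Nbn and Rad50 with each treatment.

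In undifferentiated cells the levels per length ranged from Rad51ap1 at 64.6 ± 1.13 TPM and Msh6 at 62.9 ± 3.29 down to Fancb at 8.53 ± 0.619 and Brip1 at 8.39 ± 1.07. Rad51ap1 and Msh6 differed by less than the SD of Msh6, as did Fancb and Brip1 by the SD of either. At day 8 the order had changed. Slx4 was then at 23.4 ± 2.08 TPM, Msh6 at 20 ± 1.02, Fancg at 12.6 ± 2.32 and Fancc at 11.5 ± 0.864, while Brip1 stood at 0.140 ± 0.0700 and Polq at 0.130 ± 0.135. Rad51ap1 had gone from the first place to 1.07 ± 0.311 TPM.

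Promoter sequence was available for 27 of the 33 genes, from the RefSeq table for GRCm38.p6 (mm10 coordinates), as windows from 250 bases before to 50 after a start that RefSeq lists. In Chek1, Fancc, Fanci, Fancl and Slx4 all 250 bases lay inside the GENCODE gene, by the largest distance in Fancc, whose listed start was 65533 bases from the 5′ end of the gene. Words of 3 kinds, known from cell cycle promoters, were searched on both strands. They were the CHR words TTTGAA and TTCGAA, the E2F words TTTGGCGC, TTTCCCGC, TTTGCCGC and TTTCGCGC, and the CCAAT box. An E2F word was in the window of 8 of the 27 genes (29.6%), namely Bard1, Brca2, Chek2, Clspn, Fancg, Msh6, Rad51c and Rmi1, and in 2.6% of 27025 genes with a window and 4.8% of the 10056 of these that were tested. A CCAAT box was in 18 of the 27 (66.7%), against 41.1 and 43.6%, and in 16 of the 22 genes left without those 5. A CHR word was in 4 (14.8%), Atr, Bard1, Parpbp and Polq, against 21.7 and 15.8%. Of the 19 genes that fell 8-fold or more by day 8, 4 had an E2F word, 12 a CCAAT box and 4 a CHR word, and of the other 8 genes 4 had an E2F word, 6 a CCAAT box and none a CHR word. Of all 554 genes with a window that fell 8-fold or more, 10.3% had an E2F word, 51.1% a CCAAT box and 28.5% a CHR word. Such a match is a description of letters and says nothing of binding.

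The stretches below lie before the start of the gene and outside annotated exons, are written 5′ to 3′ on the strand of the gene, and have the words in capitals (ATTGG is CCAAT on the other strand). They were picked after their values were seen, as the gene with both a CHR and an E2F word (Bard1), the largest fall (Parpbp), a large fall with 3 CCAAT boxes (Brip1), an E2F word with a smaller fall (Chek2), and genes with small falls (Msh6 and Xrcc3).
Bard1, chr1:71103147-71103222, minus strand: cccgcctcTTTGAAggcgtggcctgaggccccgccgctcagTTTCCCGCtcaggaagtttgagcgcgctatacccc
Parpbp, chr10:88146942-88146991, minus strand: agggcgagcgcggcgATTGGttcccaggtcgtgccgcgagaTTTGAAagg
Brip1, chr11:86201194-86201369, minus strand: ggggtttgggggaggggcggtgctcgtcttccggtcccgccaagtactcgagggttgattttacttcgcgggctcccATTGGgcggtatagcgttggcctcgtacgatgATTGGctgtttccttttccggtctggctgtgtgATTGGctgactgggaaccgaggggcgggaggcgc
Chek2, chr5:110839778-110839978, plus strand: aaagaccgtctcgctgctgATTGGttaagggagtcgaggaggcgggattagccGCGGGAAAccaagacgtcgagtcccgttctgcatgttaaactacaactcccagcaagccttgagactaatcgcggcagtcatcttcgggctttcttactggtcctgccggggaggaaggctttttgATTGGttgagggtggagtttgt
Msh6, chr17:87974800-87975049, plus strand: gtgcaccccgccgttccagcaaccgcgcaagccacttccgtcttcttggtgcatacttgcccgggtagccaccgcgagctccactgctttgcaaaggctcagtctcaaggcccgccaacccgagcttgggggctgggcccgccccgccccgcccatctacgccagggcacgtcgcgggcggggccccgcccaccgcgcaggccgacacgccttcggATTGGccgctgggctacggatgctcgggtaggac
Xrcc3, chr12:111813880-111814129, minus strand: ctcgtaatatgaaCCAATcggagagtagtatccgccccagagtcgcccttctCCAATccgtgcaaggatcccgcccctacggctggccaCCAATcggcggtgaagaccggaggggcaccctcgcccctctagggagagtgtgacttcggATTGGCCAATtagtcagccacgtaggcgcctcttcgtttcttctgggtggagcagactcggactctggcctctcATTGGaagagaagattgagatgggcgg

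The BRCA complex fell as a whole. Its 4 genes were all lower at each of days 2, 4 and 8, with a median log2 difference of -3.63, -3.58 and -4.79. Brca1 (chromosome 11, 101488764 to 101551955 of mm10, as are all positions here), a ubiquitin ligase subunit that promotes recombination, stood at 85.0, 84.1 and 87.2 CPM in the undifferentiated NC, naloxone and DAMGO libraries. It was at 7.83, 4.94 and 4.13 CPM at day 2, at 6.12, 4.59 and 3.69 at day 4 and at 1.87, 0.708 and 1.73 at day 8, in the same order of treatments, which is kept below. The stages did not overlap between undifferentiated cells and any later day, and days 2 and 4 overlapped. Its log2 difference at day 8 was -5.98 ± 0.24 (SE; edgeR, Benjamini-Hochberg adjusted p = 6.5e-09). Palb2 (chromosome 7, 122107262 to 122132985), the bridge between BRCA1 and BRCA2, had the smallest fall of the group. It was at 10.9, 13.5 and 12.8 CPM before differentiation, at 2.17, 1.77 and 1.98 at day 2, at 2.32, 1.84 and 1.85 at day 4 and at 1.69, 1.06 and 0.864 at day 8. Most of its fall was there by day 2, and the log2 difference at day 8 was -3.38 ± 0.25 (edgeR adjusted p = 5.38e-07). Bard1, the partner of BRCA1 whose promoter stretch holds both words, changed by -4.74 ± 0.24 by day 8, and Brca2, which acts after BRCA1 and PALB2, by -4.84 ± 0.28. Brca2 had 3.71 ± 1.2 CPM on day 2 and 7.2 ± 1.91 on day 4, a log2 difference of 0.99 ± 0.31 that was called (edgeR adjusted p = 0.0215) and was 0.68 without the day 2 naloxone library, 0.66 without the day 4 naloxone library and 0.65 without both day 2 drug libraries, not called in any of the 3.

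All 7 genes of strand exchange were lower at days 2, 4 and 8. The largest fall of the whole set was in Parpbp (chromosome 10, 88091432 to 88146941), whose product restrains recombination. It stood at 36.5, 28.5 and 29.8 CPM before differentiation, at 3.04, 1.27 and 0.898 at day 2, and at 1.65, 0.735 and 0.693 at day 4. At day 8 it had no count with NC or naloxone and 1 count with DAMGO. Over the stage 516 counts in undifferentiated cells stood against 1 at day 8, a ratio of 614 once the counts are divided by the scaled library totals of their stage (95% counting interval 110 to 24300). The smallest fall was in Xrcc3 (chromosome 12, 111803192 to 111813873), which acts in strand exchange. It stood at 16.7, 15.7 and 14.5 CPM, then at 7.10, 9 and 6.65 at day 2, at 9.43, 7.35 and 7.62 at day 4 and at 8.24, 7.55 and 8.64 at day 8. Every later library lay below every undifferentiated one, while days 2, 4 and 8 overlapped, and the log2 difference at day 8 was -0.95 ± 0.16 (edgeR adjusted p = 0.000254). Xrcc3 overlaps Klc1 on the opposite strand over 4653 bases, and whether the counting used strand is not given in the sources used here.

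Between these ends, Rad51ap1, a factor that helps strands pair, changed by -6.09 ± 0.22 by day 8 and Rad54b, a translocase of the RAD54 family, by -5.31 ± 0.46. Rad54l, the main translocase of that family, had 62.1 ± 3.82 CPM before differentiation, then 8.37 ± 1.6 (day 2), 4.52 ± 0.906 (day 4) and 6.59 ± 0.129 (day 8). Rad54l overlaps Lrrc41 on the opposite strand over 2780 bases (6550 counts for Lrrc41 beside 2273). Rad54b overlaps Fsbp on the same strand over 7927 bases (448 counts for Fsbp beside 915). The strand exchange genes Rad51c and Xrcc2 were lower at each later stage by mean CPM. Rad51c was at 16.7 ± 1.95, 6.39 ± 0.767, 3.15 ± 0.738 and 2.02 ± 0.955 CPM and Xrcc2 at 33.4 ± 2.42, 9.89 ± 0.794, 8.03 ± 1.24 and 4.88 ± 0.291. For Rad51c the step from day 4 to day 8 did not pass (log2 difference -0.69 ± 0.32, edgeR adjusted p = 0.0781), and for Xrcc2 it did (-0.72 ± 0.17, edgeR adjusted p = 0.00352).

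**Figure D2:**
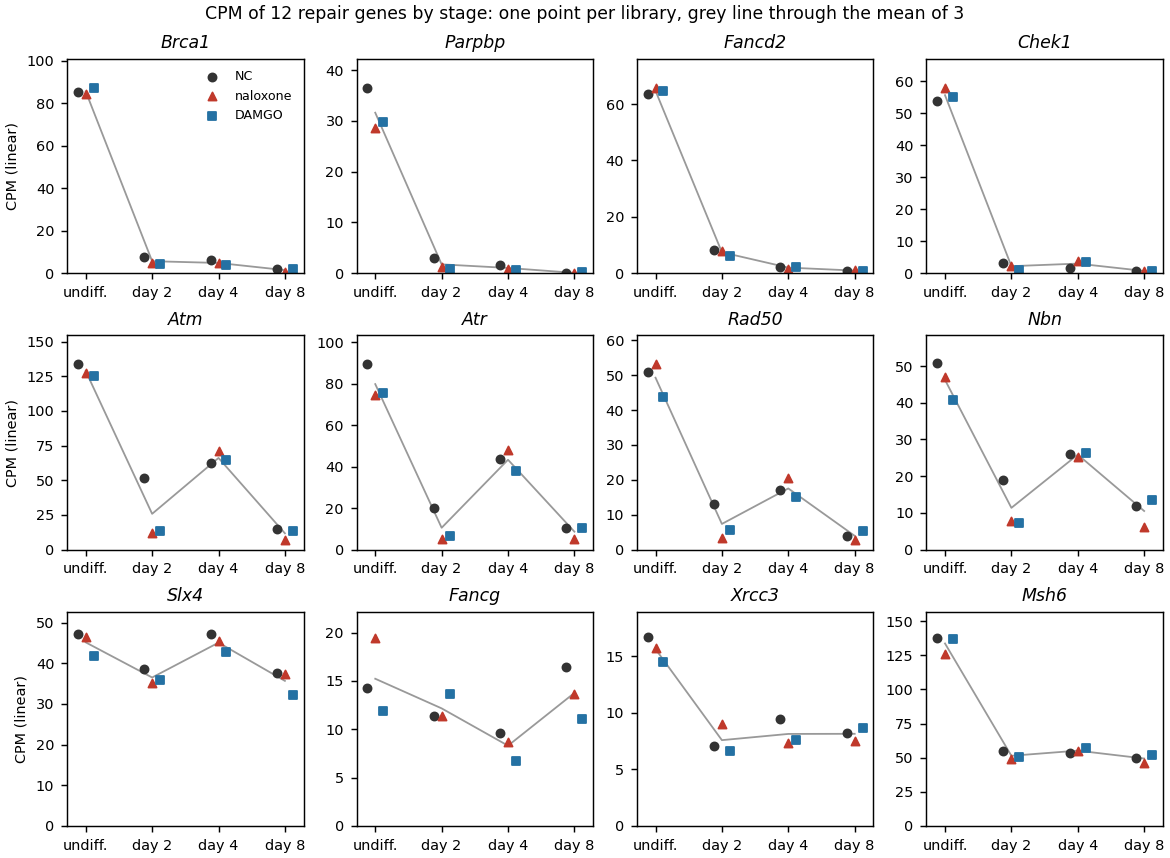
CPM on a linear axis for 12 of the repair genes at 4 stages, with 1 point per library (circle NC, triangle naloxone, square DAMGO) and a grey line through the mean of the 3 libraries of a stage. The genes of the upper row stand at 3.92 to 11.5% of their undifferentiated mean at day 2, those of the middle row have an NC point above both drug points at day 2 and a higher level at day 4, and those of the lower row stay at 6.65 CPM or above in every library.

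The Fanconi core complex was split. Fanca and Fancb, scaffold subunits, and Fancm, the translocase that brings the complex to blocked forks, were lower at day 8 by 58.0, 39.8 and 13.5 times in mean CPM, whereas Fancc and Fancg kept most of their level. Fanca (chromosome 8, 123268300 to 123318576) stood at 40.3, 35.9 and 35.7 CPM, then at 5.51, 5.32 and 5.57 at day 2, at 0.662, 1.47 and 1.85 at day 4 and at 0.749, 1.18 and 0 at day 8. It was lower at day 4 than at day 2 in all libraries, a log2 difference of -2.08 ± 0.44 (edgeR adjusted p = 0.00352) that with TPM scaling was -1.49 and not called, and its log2 difference at day 8 was -5.69 ± 0.38 (edgeR adjusted p = 2.8e-07). On the opposite strand Fanca overlaps Gm20388 over 50277 bases and Zfp276 over 1446. These held 1108 and 3122 counts in the 14 libraries beside 1317 for Fanca. Fancg (chromosome 4, 43002343 to 43010506), an adaptor that holds FANCA, stood at 14.3, 19.5 and 11.9 CPM, then at 11.4, 11.4 and 13.7 at day 2, at 9.59, 8.64 and 6.69 at day 4 and at 16.5, 13.7 and 11.1 at day 8. Its undifferentiated and day 8 libraries overlapped, and the log2 difference of -0.16 ± 0.19 did not pass (edgeR adjusted p = 0.459). With a trend on GC content and length removed across libraries it was -0.84 and called. At day 4 it was the lowest and was called against undifferentiated cells, at -0.87. Fancc, whose product belongs to the same complex, was at 20.3 ± 2.91 CPM before differentiation and 15.8 ± 1.01 at day 8, a log2 difference of -0.37 ± 0.13 (edgeR adjusted p = 0.0216). It was -0.21 without the undifferentiated naloxone library and -0.31 without the day 8 naloxone library, not called in either, and DESeq2 did not call it either (adjusted p = 0.078). Fancl, the ubiquitin ligase of the complex, was at 19.8 ± 0.705 CPM and 5.92 ± 1.91 at these stages (log2 difference -1.79 ± 0.20).

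Of the FANCD2-FANCI pair and its effectors all 4 genes were lower at day 8, yet by very different amounts. Fancd2 (chromosome 6, 113531682 to 113597017), the ubiquitinated partner at the crosslink, stood at 63.7, 65.8 and 64.6 CPM, then at 8.26, 7.86 and 6.11 at day 2, at 2.15, 1.47 and 2.31 at day 4 and at 0.749, 1.30 and 0.691 at day 8. The 4 stages did not overlap, and the log2 difference at day 8 was -6.05 ± 0.20 (edgeR adjusted p = 1.48e-09). Slx4 (chromosome 16, 3979105 to 4003770), a scaffold for nucleases, stood at 47.1, 46.4 and 41.9 CPM, then at 38.5, 35.1 and 35.9 at day 2, at 47.1, 45.4 and 42.7 at day 4 and at 37.5, 37.4 and 32.1 at day 8. It was at 79.0% of its undifferentiated level at day 8, a log2 difference of -0.34 ± 0.08 (edgeR adjusted p = 0.00225), and at day 4 its libraries overlapped those of undifferentiated cells (-0.01, or -0.22 and called with the GC and length trend removed across libraries). Brip1, the helicase partner of BRCA1 shown above with 3 CCAAT boxes, went from 29.6 ± 3.75 CPM to 0.559 ± 0.281 at day 8. Fanci, the partner of FANCD2, went from 58.5 ± 2.60 to 5.58 ± 1.44. Fanci overlaps Polg on the opposite strand over 4034 bases, and Polg held 20646 counts in the 14 libraries beside 2266 for Fanci.

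The genes that act at break ends or dissolve joined strands all fell by day 8, with a median log2 difference of -4.35. Polq (chromosome 16, 37011786 to 37095417), the polymerase of a microhomology pathway that competes with recombination, stood at 52.0, 50.4 and 49.7 CPM, then at 5.51, 1.14 and 1.62 at day 2, at 2.65, 3.68 and 3 at day 4 and at 1.31, 0.354 and 0 at day 8. Its log2 difference at day 8 was -6.59 ± 0.51 (edgeR adjusted p = 8.67e-07). Rmi1 (chromosome 13, 58402248 to 58411148), which works with BLM to dissolve crossed strands, stood at 34.6, 35.4 and 32.4 CPM, then at 30.6, 14.3 and 16.2 at day 2, at 29.8, 33.1 and 31.4 at day 4 and at 12.9, 8.26 and 15.4 at day 8. Its day 4 libraries overlapped those of undifferentiated cells, and its log2 difference at day 8 was -1.53 ± 0.26 (edgeR adjusted p = 0.000293). Rmi1 overlaps Hnrnpk on the opposite strand over 1096 bases, and Hnrnpk held 81175 counts beside 2181 for Rmi1. Its call at day 2 was lost without the 2 day 2 drug libraries (log2 difference -0.17, against -0.79), and also without either of them or without the undifferentiated naloxone library. Exo1, a nuclease that trims ends, changed by -5.98 ± 0.21, and Blm, the helicase partner of RMI1, by -5.02 ± 0.31. Nbn and Rad50, which sense breaks together, changed by -2.19 ± 0.29 and -3.68 ± 0.37.

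The checkpoint genes, which halt the cycle when DNA is damaged, were all lower at each of the 3 days. Chek1 (chromosome 9, 36708482 to 36727065), the kinase that ATR activates, stood at 53.8, 58.0 and 55.2 CPM, then at 3.19, 2.28 and 1.08 at day 2, at 1.65, 3.86 and 3.46 at day 4 and at 0.562, 0.826 and 0.691 at day 8. Its log2 difference at day 8 was -6.27 ± 0.32 (edgeR adjusted p = 2.96e-08), and Clspn, the adaptor for its activation, changed by -6.13 ± 0.28. Chek2 (chromosome 5, 110839979 to 110874145), the kinase that ATM activates, stood at 22.2, 25.9 and 22.9 CPM, then at 3.19, 1.65 and 1.98 at day 2, at 2.15, 1.29 and 2.77 at day 4 and at 5.06, 3.42 and 2.76 at day 8. It had its lowest mean at day 4, and its log2 difference at day 8 was -2.69 ± 0.25 (edgeR adjusted p = 2.98e-06). Atm and Atr, the kinases that sense breaks and bare single strands, kept about 50% of their level at day 4 (51.3 and 54.3%) and 9.10 and 10.8% at day 8.

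Msh6 (chromosome 17, 87975062 to 87990892), which recognises mismatched bases, was the only mismatch gene among the 33. It stood at 138, 126 and 137 CPM, then at 54.6, 48.9 and 50.7 at day 2, at 53.3, 54.9 and 57.3 at day 4 and at 49.6, 46.4 and 52.2 at day 8. It fell once, by day 2, and then held, with a log2 difference of -1.44 ± 0.08 at day 8 (edgeR adjusted p = 4.28e-08) and no call between days 2 and 4 (0.11) or days 4 and 8 (-0.16). With TPM scaling both Msh6 steps were called, at 0.33 and -0.56. A 34-base overlap joins it with Fbxo11 on the opposite strand.

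Between day 2 and day 4 the genes moved in both directions. Of the 33, 8 were lower at day 4, where the background was 24.8%, 9 were higher, where it was 27.1% (51.9% of all genes in either direction), and 16 did not pass. With TPM scaling the split was 6 lower and 11 higher, and the background shares here are not those of TPM scaling. The 8 lower genes were Bard1, Rad51ap1, Rad51c, Rad54l, Fanca, Fancd2, Fanci and Exo1, with log2 differences from -2.08 (Fanca) to -0.67 (Exo1). The 9 higher genes were Brca2, Fancm, Slx4, Nbn, Rad50, Blm, Rmi1, Atm and Atr, with differences from 0.31 (Slx4) to 2.15 ± 0.35 (Atr, edgeR adjusted p = 0.000911). Several of these differences were smaller without the drug libraries of day 2, although a fit without them leaves 1 library for day 2. In Brca2, Fancm, Slx4, Nbn, Rad50, Atm and Atr every day 4 library lay above every day 2 library, NC included. The share of all genes with this order was not computed, so the number of such members has no background to stand against. With NC alone standing for day 2, a fit added after the data were seen, Atr had a log2 difference of 1.24 in place of 2.15. Atm then had a log2 difference of 0.42 in place of 1.53, Rad50 0.45 in place of 1.31, Nbn 0.56 in place of 1.23, Fancm 0.18 in place of 1.11 and Blm 0.17 in place of 0.98. The count of 17 genes called was 11 without the day 2 naloxone library, 12 without the day 2 DAMGO library, 10 without the day 4 naloxone library and 12 without the day 4 DAMGO library.

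Between day 4 and day 8, 19 genes fell further, where the background was 31.5%, and 3 were higher, where it was 37.1% (68.6% in either direction). All 6 genes of break ends and dissolution and 4 of the 5 checkpoint genes were among the 19. The largest of these steps were in Parpbp (-3.84 ± 0.87), Atm (-2.58 ± 0.42), Polq (-2.53 ± 0.76) and Fancm (-2.51 ± 0.38). Of the 19, Fancd2 and Rad54b each lost the call in 9 of the 22 alternatives run, and Exo1 and Parpbp each in 3. The 3 higher genes were Rad54l (0.56 ± 0.19), Fancg (0.71 ± 0.21) and Chek2 (0.87 ± 0.34). None of them passed with TPM scaling, at 0.16, 0.33 and 0.47, where the split was 19 lower and 0 higher. The background shares above are not those of TPM scaling. Of the 22 alternatives run, Chek2 lost its call in 12, Rad54l in 9 and Fancg in 6. Without the day 8 NC library none of the 3 was called, with Chek2 at 0.68, Rad54l at 0.54 and Fancg at 0.57. That scaling placed the all-gene median at 0.17 for day 4 and -0.18 for day 8 against undifferentiated cells, and at 0.23 for day 4 against day 2 and -0.32 for day 8 against day 4. The calls of Atm, Atr, Nbn and Fancc at day 4 were also lost with that scaling, at -0.61, -0.68, -0.65 and -0.16. Leaving out the undifferentiated naloxone library or the day 4 NC library ended the day 4 calls of Atm, Atr and Nbn, at -0.75, -0.74 and -0.63 without the former and -0.66, -0.63 and -0.66 without the latter. Those of Atm and Atr also ended without the undifferentiated DAMGO library (-0.90 and -0.85) or the day 4 DAMGO library (-1.01 and -0.81), and that of Atm without any of the 3 day 8 libraries (-0.96 each time).

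The change between stages also moved with GC content. Across 13773 genes the correlation of the log2 difference with the GC content of the transcripts was 0.362 for day 2, 0.0999 for day 4 and 0.362 for day 8 against undifferentiated cells, and across the 33 members it was 0.483, 0.136 and 0.411. For day 4 against day 2 it was -0.395 over all genes and -0.392 over the members, and for day 8 against day 4 it was 0.471 and 0.593. These are descriptions across genes, which share libraries and are not independent. With a trend on GC content and length removed across libraries, 32 members were lower at day 2, 32 at day 4 and 33 at day 8. Fancl was then no longer called at day 2, at -0.27 in place of -1.18. The shares of all genes called lower given above are for the fit with no trend removed.

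Other repair genes gave smaller medians at day 8, and the counts of each list here and below stand against 38.5% of all genes called lower and 41.6% higher. Of 27 further recombination genes tested, 16 were lower, 5 higher and 6 did not pass, with a median log2 difference of -1.36. The largest falls there were in Gen1, a resolvase (-7.60 ± 0.59), Fignl1, a regulator of recombination (-5.57 ± 0.22), and Eme1, a nuclease subunit (-4.51 ± 0.35). Of 14 further Fanconi genes 6 were lower and 5 higher (median -0.11), and the conjugating enzyme gene Ube2t (-3.43 ± 0.24), the deubiquitinase gene Usp1 (-2.89 ± 0.14) and the ligase gene Rfwd3 (-1.15 ± 0.07) fell most. Of 21 further checkpoint genes 15 were lower and 2 higher (median -1.23), among them Timeless of the replication fork (-4.18 ± 0.12), the ATR activator genes Etaa1 (-3.30 ± 0.43) and Topbp1 (-2.87 ± 0.12). Of 6 further mismatch genes 5 were lower and none higher (median -1.12), with Pms1 at -2.78 ± 0.46, Pms2 at -1.30 ± 0.10 and Msh3 at -1.25 ± 0.17.

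Pathways that do not use a sister strand had smaller medians too. Of 13 end-joining genes 7 were lower and 2 higher (median -0.35), with Rif1, which protects ends from trimming, at -4.44 ± 0.49, the ligase gene Lig4 at -3.33 ± 0.40 and the kinase gene Prkdc at -1.92 ± 0.34. Of 20 base excision genes 13 were lower and 2 higher (median -0.71), led by the glycosylase genes Neil3 (-5.66 ± 0.21) and Ung (-4.32 ± 0.34) and the replicative ligase gene Lig1 (-3.77 ± 0.14). Of 19 nucleotide excision genes 6 were lower, 6 higher and 7 did not pass (median -0.10), with Uvssa at -2.57 ± 0.35, Gtf2h1 at -1.58 ± 0.18 and Ercc5 at -1.44 ± 0.17. Of 13 genes of translesion synthesis and damage reversal 9 were lower and 1 higher (median -1.69), with the polymerase genes Rev3l at -5.16 ± 0.46 and Polk at -2.74 ± 0.31 and the ligase gene Rad18 at -4.71 ± 0.17. Whether these lists differ from the 33 genes was not tested, and all were chosen with earlier results of these data known.

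Genes of S phase and mitosis were also lower. Of 35 tested 33 were lower at day 8 and 1 higher, with a median of -4.15. The proliferation marker Mki67 had 1310 ± 42.5 CPM before differentiation and then 21.9 ± 11.4 (day 2), 9.35 ± 3.68 (day 4) and 1.1 ± 0.345 (day 8). Pcna, the sliding clamp of replication, had 485 ± 9.7 CPM and then 85.2 ± 7.55, 88.9 ± 2.72 and 122 ± 22. Bub1 of the spindle checkpoint changed by -8.30 ± 0.32 and Top2a, a topoisomerase of dividing cells, by -7.59 ± 0.25 by day 8. The part that fewer dividing cells had in the fall of the repair genes was not tested. Of 20 genes known as targets of p53, with Trp53 itself counted among them, 13 were lower and 5 higher (median -0.67). Trp53 was at 100 ± 6.75 CPM before differentiation and 63.2 ± 7.85 at day 8, and Cdkn1a, a cell cycle inhibitor that p53 induces, at 229 ± 16.1 and 42.5 ± 1.44. Pmaip1 (-4.22 ± 0.34) and Plk2 (-4.03 ± 0.13) fell and the death receptor gene Fas rose (3.97 ± 0.20).

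**Figure D3:**
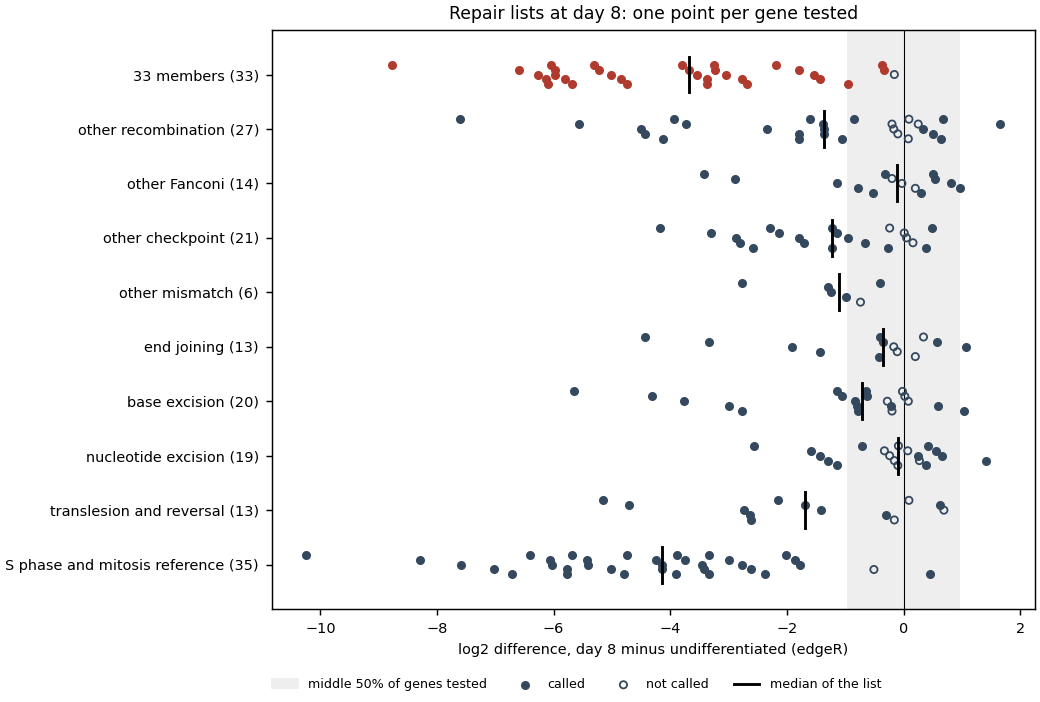
Log2 difference of day 8 minus undifferentiated cells for each gene tested in 10 lists, with the number of genes in parentheses (filled points were called by edgeR, open points were not, and the vertical bars are list medians). The grey band holds the middle 50% of all genes tested. The median bar of the 33 members lies at -3.68, that of the S phase and mitosis genes at -4.15, and those of the other repair lists between -1.69 and -0.10.

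The comparison of naloxone with NC asked whether the drug moved these genes over the 4 stages in 1 estimate, with 1 library of each per stage. None of the 33 was called for naloxone (edgeR, 0 of 33 and 0% of all genes, Parpbp at -0.66 the only member at an unadjusted p under 0.05, smallest adjusted p = 0.469). None was called for DAMGO against NC either (0 of 33 and 0% of all genes, Slx4 at -0.16 the only member at an unadjusted p under 0.05, smallest edgeR adjusted p = 0.951), nor for naloxone against DAMGO (0 of 33 and 0%, none at an unadjusted p under 0.05, smallest edgeR adjusted p = 1). DESeq2 and limma also called 0 in all of these. The fitted log2 differences ran from -0.70 (Atm) to 0.18 (Chek1 and Fanci) for naloxone and from -0.62 (Brip1 and Parpbp) to 0.28 (Rad54b) for DAMGO, and the estimates were below 0 in 27 and 26 of the 33 genes. The median of all genes tested was 0 for both drugs. In undifferentiated cells and at days 2, 4 and 8, naloxone was below NC in 19, 27, 19 and 25 members. For DAMGO these numbers were 22, 25, 17 and 15. The median difference of all genes from NC lay between -0.01 and 0.004 for each drug and stage. At day 2 and, for naloxone, at day 8 these differences also moved with GC content, as given below. The NC libraries enter both comparisons. No drug term that differed between undifferentiated and differentiating cells was called for any member (edgeR, 0 of 33 and 0% of all genes for naloxone and for DAMGO, none at an unadjusted p under 0.05, DESeq2 and limma 0).

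At day 2 both drug libraries held less than NC of a group of these genes. The test here was the mean difference of the drugs from NC at day 2 beyond that at the other 3 stages, and it was set up because earlier results of these data singled out day 2. It called 8 of the 33 genes lower and none higher, where 12.4% of all genes were called lower and 1.28% higher. The 8 were Fancm, Nbn, Rad50, Blm, Rmi1, Polq, Atm and Atr. With 1 library per condition, a drug effect and a fault of these 2 libraries cannot be told apart. A fault of the single NC library of day 2 cannot be told apart from them either.

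Atm (chromosome 9, 53439149 to 53536740) had the largest gap by CPM. It stood at 134, 127 and 125 CPM before differentiation, at 51.6, 12.2 and 13.5 at day 2, at 62.5, 71.1 and 64.6 at day 4 and at 15.0, 7.08 and 13.1 at day 8. The day 2 libraries held 356 counts with NC, 96 with naloxone and 75 with DAMGO. Atm with NC at day 2 was 4.24 times the level with naloxone and 3.83 times that with DAMGO, and at day 4 the drug libraries were the higher ones. The day 2 term was -1.92 ± 0.27 (edgeR adjusted p = 0.00117).

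Atr (chromosome 9, 95857597 to 95951781) stood at 89.6, 74.4 and 75.3 CPM, then at 20.1, 4.94 and 6.47 at day 2, at 43.7, 48.1 and 38.1 at day 4 and at 10.3, 5.07 and 10.5 at day 8 (day 2 term -1.65 ± 0.35, edgeR adjusted p = 0.0068). Fancm (chromosome 12, 65075603 to 65132058) stood at 46.5, 50.2 and 47.6 CPM, then at 17.0, 5.20 and 6.47, at 17.7, 21.1 and 20.8 and at 4.49, 2.60 and 3.63 (-1.62 ± 0.26, edgeR adjusted p = 0.00187). Rad50 (chromosome 11, 53649519 to 53707319) stood at 50.8, 53.3 and 43.8 CPM, then at 13.0, 3.30 and 5.75, at 17.2, 20.4 and 15.0 and at 3.93, 2.71 and 5.18 (-1.56 ± 0.38, edgeR adjusted p = 0.0146). In all 3 genes NC was the highest of the day 2 libraries. At day 8 naloxone was again below NC in all 3, while DAMGO was above NC in Atr and Rad50 and below it in Fancm. Nbn (chromosome 4, 15957925 to 15992589) stood at 50.8, 47.1 and 40.8 CPM, then at 19.0, 7.73 and 7.37, at 26.1, 25.2 and 26.3 and at 12, 6.02 and 13.5 (-1.14 ± 0.35, edgeR adjusted p = 0.0446). Blm (chromosome 7, 80454733 to 80535119) stood at 71.9, 63.0 and 63.4 CPM, then at 8.12, 2.28 and 3.05, at 8.10, 7.90 and 10.2 and at 2.43, 1.42 and 2.42 (-1.50 ± 0.32, edgeR adjusted p = 0.00667). The same order of libraries at day 2 was seen in Rmi1 and Polq, whose values are given above, with terms of -1 ± 0.26 (edgeR adjusted p = 0.0223) and -1.94 ± 0.55 (edgeR adjusted p = 0.0332).

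Several measures moved with this day 2 gap. The 8 genes had transcripts of 37.3 to 45.91% GC (median 44.46), and the other 25 of 40.82 to 58.82% (median 47.44). Across 13773 genes the day 2 difference from NC correlated with GC content at r = 0.541 for naloxone and 0.489 for DAMGO, and across the 33 members at 0.526 and 0.493, while at day 4 it was -0.0438 and -0.00794 over all genes. At day 8 the correlation was 0.409 for naloxone and 0.0146 for DAMGO over all genes, and 0.129 and -0.321 across the members. With the trend on GC content and length removed, across libraries or within stages, 3 of the 8 were called. Both ways these were Fancm at -0.94, Rad50 at -1.07 and Atm at -1.11. The background of 12.4% of all genes called lower is for the fit with no trend removed. In that fit the count of members called was 2 without the day 2 naloxone library. It was 5 without the day 2 DAMGO, the undifferentiated NC or the day 4 NC library. Mki67, at 34.9, 13.8 and 16.9 CPM at day 2, had a term of -1.10 ± 0.26 (edgeR adjusted p = 0.0132), and the summed neuronal markers ran from 796 to 1890 CPM at day 2. The part of these in the gap was not tested.

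**Figure D4:**
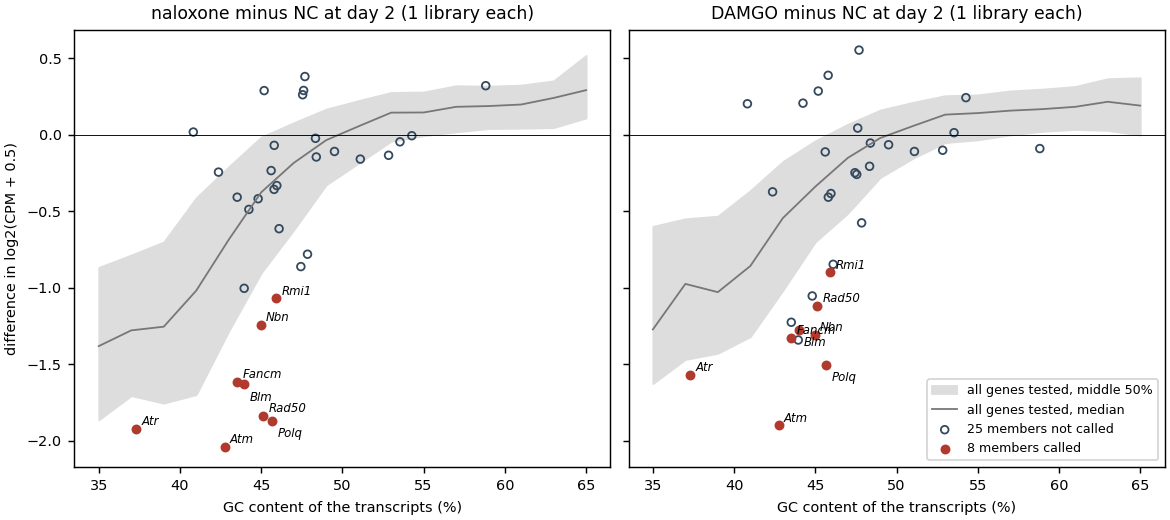
Difference in log2(CPM + 0.5) of the naloxone (left) and DAMGO (right) library from the NC library at day 2, plotted against the GC content of the transcripts, for the 33 repair genes. The line and grey band give the median and middle 50% of all genes tested in bins of GC content. The 8 called members (filled) lie between 37.3 and 45.91% GC, below the line of all genes in both panels.

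Passage was compared between the reference libraries, 1 each. No member was called for passage 13 against passage 8 (edgeR, 0 of 33, where 0.0217% of 13855 genes were called, none at an unadjusted p under 0.05, DESeq2 and limma 0). Passage 13 was below passage 8 in 30 of the 33 genes and in 51.2% of all genes, by small amounts, with a median of -0.13 and a range from -0.41 (Palb2) to 0.36 (Fancg). Against the 3 undifferentiated libraries of the drug experiment, which were also at passage 8, the passage 8 reference was above their range in 22 genes, within it in 9 and below it in 2, where the shares of all genes were 35.5, 33.7 and 30.8%. No member was called between them (edgeR, 0 of 33, where 0.325% of genes were called, 2 members at an unadjusted p under 0.05, smallest adjusted p = 0.278, DESeq2 and limma 0). These were, by the fitted log2 difference, Exo1 at -0.54 ± 0.18 and Msh6 at -0.24 ± 0.11. Exo1 stood at 71.7 and 56.7 CPM in the passage 8 and passage 13 references and at 54.2, 45.2 and 50.4 CPM in the drug experiment.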

How the data were processed

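RNA of 14 libraries was extracted with Trizol and made into TruSeq libraries, per the labels' protocols. The authors aligned reads to mm10 with Bowtie, per the submitters' processing notes. They quantified genes with RSEM, and the deposited values are each gene's estimated count, TPM and effective length, per the file headers. For versions, annotation and use of strand nothing is given in the sources used here. Estimated counts were rounded to whole numbers, scaled by TMM and filtered by stage, which left 13144 genes (13855 with the references). The tests were edgeR 4.0.16 quasi-likelihood fits (R 4.3.3) of stage and treatment, with 6 residual degrees of freedom, 5 for the day 2 term, 4 for the drug terms by state and 6 for passage, and a Benjamini-Hochberg adjusted p under 0.05 over all genes. Alternatives used DESeq2 1.42.0 and limma 3.58.1 on log2(TPM + 1) or log2(TPM + 0.1), both on values made from the deposited TPM or counts, and trends fitted with mgcv 1.9.3. The code was tested on simulated counts. The 33 genes and all gene lists were chosen with earlier results of these data known. Libraries were compared by label, since each condition has 1. Values per library are given for the largest and smallest change of each role group and for members called in a drug or passage comparison, and up to 3 genes per other list are named, those with the largest change, with Mki67, Pcna, Trp53 and Cdkn1a always. An item withheld for evaluation is not reported here. Symbols came from GENCODE for 29202 of 29713 identifiers. Intervals and floors cover counting error only.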

Additional observations from a re-analysis of the deposited data

Results flagged for a closer look

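In 8 genes the drugs differed from NC at day 2 otherwise than at the other 3 stages, by edgeR's test of that difference. The log2 terms were -1.62 for Fancm, -1.14 for Nbn, -1.56 for Rad50, -1.50 for Blm, -1 for Rmi1, -1.94 for Polq, -1.92 for Atm and -1.65 for Atr. All 8 were lower in both day 2 drug libraries than in day 2 NC. Of all genes 12.4% were called lower by the same term, in the fit with no trend removed. With the trend on GC content and length removed across libraries, Fancm, Rad50 and Atm kept the call and the other 5 lost it. Of the 19 alternatives run for this term, Nbn lost its call in 13, Polq in 11 and Rmi1 in 9, while Atr and Blm lost it in 3 each, Atm in 2, and Fancm and Rad50 in 1 each.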

How the results depend on the processing

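The counts of members lower than in undifferentiated cells stayed within 1.5 times under every alternative run, from 26 to 32 at day 2, 23 to 32 at day 4 and 29 to 33 at day 8, the lowest from edgeR's test that a change exceeds 2-fold (glmTreat), which is stricter than the 29, 25 and 29 called with an estimate of 2-fold or more. Leaving out single libraries gave 31 to 32, 28 to 31 and 31 to 32. For day 4 against day 2 the count of 17 became 2 by that test, 6 without the 2 day 2 drug libraries (added after the data were seen) and 10 to 19 without single libraries. For day 8 against day 4 the count of 22 became 9 by that test and 18 to 23 without single libraries. The day 2 term, 8 genes, gave 5 with limma on log2(TPM + 1), 4 on log2(TPM + 0.1), 3 with the GC and length trend removed across libraries, 3 within stages (added after the data were seen), and 2 to 8 without single libraries. Fancl reversed for day 8 against day 4, from -0.17 to 0.54 with the trend removed across libraries (edgeR adjusted p = 0.0308). The causes of these changes were not tested, except that the 2-fold test asks for a larger change. The counts of 0 for drugs and passage stayed at 0 under every alternative run. Leaving out an undifferentiated library for the drug terms by state, where the term could then not be estimated, or day 2 NC for the day 2 term gave no value. No paired analysis was possible because each condition has 1 library and the labels carry no replicate numbers. Depth limits the day 8 levels most, where the 33 genes together held 1250 to 1613 counts per library.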
